A study of Mus musculus with 2 samples.

Results

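Cycling chondrocytes are cartilage cells caught in the act of division. They were taken here from single-cell counts of unique molecular identifiers (UMIs), where each UMI stands for a captured RNA molecule. Barcodes with at least 1000 UMIs and at most 10% of them from mitochondrial genes were kept. Chondrocytes were the kept cells with at least 10 UMIs of Acan, Col9a1 and Matn1 together and 0 UMIs of the endothelial genes Pecam1 and Cdh5. Those with at least 3 UMIs of the proliferation genes Mki67 and Top2a together were called cycling. The rule found 737 cells of 3726 chondrocytes, 22086 kept cells and 27766 barcodes in all.

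The study deleted the splicing factor gene Srsf2 in the muscle lineage with Cre recombinase driven by the Myf5 promoter and compared mutant with control mouse embryos at E14. Trunks and limbs were dissociated, tdTomato-positive cells were sorted, and a single 10x Genomics library was made from each genotype. The library titled SRSF2f/f/Myf5-Cre/tdT carries floxed Srsf2 on both alleles, and the library titled SRSF2f/w/Myf5-Cre/tdT carries a floxed and a wild-type allele and served as the littermate control. All embryos carried the Myf5-Cre allele and the Rosa26-LSL-tdtomato reporter, so every cell described lies inside the reporter gate, and cartilage cells enter only where the reporter had recombined. The libraries are called f/f-labelled and f/w-labelled below. With 1 library per genotype there is no test between them. Intervals are 95% intervals, exact for shares and for ratios of summed UMIs and a normal approximation for the log2 ratio of 2 shares, and they cover counting error only, and differences between embryos, dissections and libraries cannot be told apart from genotype.

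The labels have to be read with care. The barcode suffixes were matched to samples through the cell numbers in each sample's own summary, 15268 for the f/f-labelled and 12498 for the f/w-labelled library, but the names of those summaries call the f/f-labelled sample WT and the f/w-labelled sample KO. The targeted gene, Srsf2 (chr11:116849901-116853094, minus strand, GRCm38), had 2700 UMIs in the cycling chondrocytes of the f/f-labelled library and 1416 in those of the f/w-labelled library. These are 293.6 and 214.3 CPM, the UMIs of a gene per 1000000 UMIs of the same cells, a log2 ratio of f/w-labelled over f/f-labelled of -0.45 (-0.55 to -0.36). In non-cycling chondrocytes the ratio was -0.41 (-0.48 to -0.34) and in other cycling cells -0.61 (-0.65 to -0.57). Kept cells with at least 3 UMIs of the myogenic genes Pax7, Myf5, Myod1 and Myog were 19.8% of the f/f-labelled and 1.30% of the f/w-labelled library. The study, by its own clusters, reports a far smaller share of skeletal muscle cells in the mutant than in the control. Here the library titled as the mutant had the far higher share, which goes against the titles, as do the names of the summaries. Srsf2 was not lower in that library. The number of cells runs with the titles, since the study describes more cells from the mutant than from the control and the f/f-labelled library held more. Which is right was not settled, and each direction between libraries given here changes its sign if the titles are exchanged. The library kit reads only transcript ends and which part of Srsf2 the floxed allele removes was not established here, so this level is no measure of loss of the gene.

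Cartilage of the embryonic skeleton grows by division of chondrocytes. Resting cells near the joint feed columns of flat, dividing cells that lay down type II collagen and aggrecan, and these leave the cell cycle as they become prehypertrophic and then hypertrophic, when they turn on Ihh and Col10a1. Ihh and PTHrP signals hold cells in the dividing state, FGFR3 signalling restrains it, and the CDK inhibitor p57, encoded by Cdkn1c, accompanies cell cycle exit. In the cycle itself, E2F factors turn on DNA replication genes and histones are made in S phase. Genes for mitosis follow in G2 and M, many under promoters with a CHR element (cell cycle genes homology region) and CCAAT boxes.

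The f/f-labelled library held 441 of the cycling chondrocytes and the f/w-labelled library 296. Their median depth was 18731 UMIs per cell (range 2908 to 102095) and 18356 (1798 to 87527), against 12475 and 11630 in the non-cycling chondrocytes. Cycling cells were deeper in both libraries, with a median of 4262 and 4043.5 genes, and a limit set in UMIs is itself passed more often by deeper cells. The median mitochondrial share was 3.14% and 2.71%. Mki67 and Top2a together had a median of 17 and 14 UMIs per cell, and the highest cell had 203 and 78. Just inside the limit of 3 UMIs were 43 and 33 chondrocytes, and just outside it, with 2 UMIs, were 110 and 68. At the cartilage limit, 8 and 8 cycling cells had exactly 10 UMIs of Acan, Col9a1 and Matn1, while 15 and 6 with 9 UMIs were left out. A further 34 and 89 cycling cells past the cartilage limit were left out for a UMI of Pecam1 or Cdh5. In all, 74 barcode sequences occur in both libraries, 3 of them among the cycling chondrocytes.

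The cells carried markers of cartilage and of division. The rule genes are given only as a description, and Sox9, the master transcription factor of cartilage, was not part of it. Sox9 had a UMI in 98.4% of the f/f-labelled and 94.3% of the f/w-labelled cycling chondrocytes. After each cell was thinned to 5000 UMIs, which left out 2 and 3 shallower cells, these shares were 86.3% and 80.2%. Endothelial cells, chosen by at least 3 UMIs of Pecam1 and Cdh5 and used as a gauge of free RNA, gave 11.7% and 16.6% after the same thinning, from 30.6% and 32.0% before it at median depths of 13803 and 17095 UMIs. The highest of these cells had 164 and 325 UMIs of Acan, Col9a1 and Matn1, so the gauge may hold more than free RNA. Col2a1, the main collagen of cartilage, stood at 8500 and 6474 CPM, with a median per cell of 85.6 and 63.7 UMIs per 10000. Birc5, the survivin gene of dividing cells, stood at 274.8 and 275.9 CPM, against 26.6 and 20.9 CPM in non-cycling chondrocytes. Thinned shares with a UMI were 94.8% and 89.8% for Acan, 98.2% and 97.3% for Col9a1, 67.4% and 62.8% for Mki67, and 85.0% and 86.7% for Top2a. Before thinning, Acan had a UMI in 99.5% and 97.6% of the cells, Col9a1 in 100% and 100%, Mki67 in 91.4% and 90.2%, and Top2a in 98.9% and 99.7%. Endothelial cells had thinned Acan shares of 10.3% and 11.2% and unthinned ones of 26.3% and 23.8%. Their Mki67 shares of 29.7% and 27.9% are no gauge of free RNA, since endothelial cells of an embryo divide too.

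Markers of other cell types were also present in these cells. Skeletal muscle genes reached at least 3 UMIs in 90 of the 441 f/f-labelled cells (20.4%) and in 8 of the 296 f/w-labelled cells (2.70%), against 8.70% and 0.41% of non-cycling chondrocytes. The summed level of the 11 muscle genes was 194 and 49.6 CPM, with Actc1, a muscle actin, the most abundant and Myh3 at 0 in the f/w-labelled library. The 6 immune genes summed to 7.94 and 240.5 CPM, led by Srgn and by the mast cell protease gene Cpa3. The 5 epithelial genes summed to 47.9 and 223.4 CPM, led by Epcam and Krt14. The 8 erythroid genes summed to 326 and 103 CPM, led by Hbb-bs, and Alas2, an enzyme gene of haem synthesis, was at 0 in both libraries. The 7 endothelial markers listed, which do not include Pecam1 and Cdh5 of the rule, summed to 17.2 and 28.2 CPM, led by Egfl7, with Tie1 at 0 in the f/f-labelled library. The 6 neuronal genes summed to 58.7 and 108.2 CPM, led by Stmn2, and the 5 Schwann cell genes to 23.4 and 28.0 CPM. Mesenchyme genes, which perichondrial cells share, reached 3 UMIs in 100% and 99.3% of the cells and summed to 3122 and 3410 CPM. Tendon genes summed to 38.6 and 38.0 CPM, osteoblast genes to 405 and 252 CPM, led by Ibsp, and pericyte genes to 303 and 247 CPM, led by Cspg4, which cartilage also expresses. Scrublet, a caller of doublets, marked 75 of the f/f-labelled cells (17.0%) against 4.48% of non-cycling chondrocytes, and marked no cell of the f/w-labelled library at its automatic limit, so it did not work there. At a fixed score of 0.25 the shares were 13.4% of cycling against 3.95% of non-cycling chondrocytes in the f/f-labelled library, and 4.39% against 2.45% in the f/w-labelled library. No cell was removed for this, and the part of doublets in the results was not tested beyond the values given beside them.

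How large a share of the cartilage was dividing was asked first. Cycling cells were 22.5% of chondrocytes in the f/f-labelled library (20.7 to 24.4, 441 of 1959) and 16.8% in the f/w-labelled library (15.04 to 18.6, 296 of 1767), a log2 ratio of -0.43 (-0.62 to -0.24). Thinned to 5000 UMIs, with a UMI of Mki67 or Top2a as the limit, the shares were 31.7% (29.6 to 33.8) and 23.2% (21.2 to 25.3). The intervals of the libraries do not overlap on either scale. A further 34 and 89 cycling cells past the cartilage limit were outside both scales, left out for a UMI of Pecam1 or Cdh5. How many non-cycling cells were lost in this way is not given here. The part of this filter in the difference between the libraries was not tested. The same direction was seen outside cartilage, where 29.7% of all other kept cells were cycling in the f/f-labelled and 19.7% in the f/w-labelled library. It was 27.2% and 23.0% of cells with at least 3 UMIs of the fibroblast genes Pdgfra and Dcn, and 53% and 47.3% of the muscle cells, whose intervals overlap. In both libraries the cycling share of chondrocytes was the lowest of these 4 populations. Chondrocytes themselves were 16.1% and 17.8% of kept cells.

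**Figure D1:**
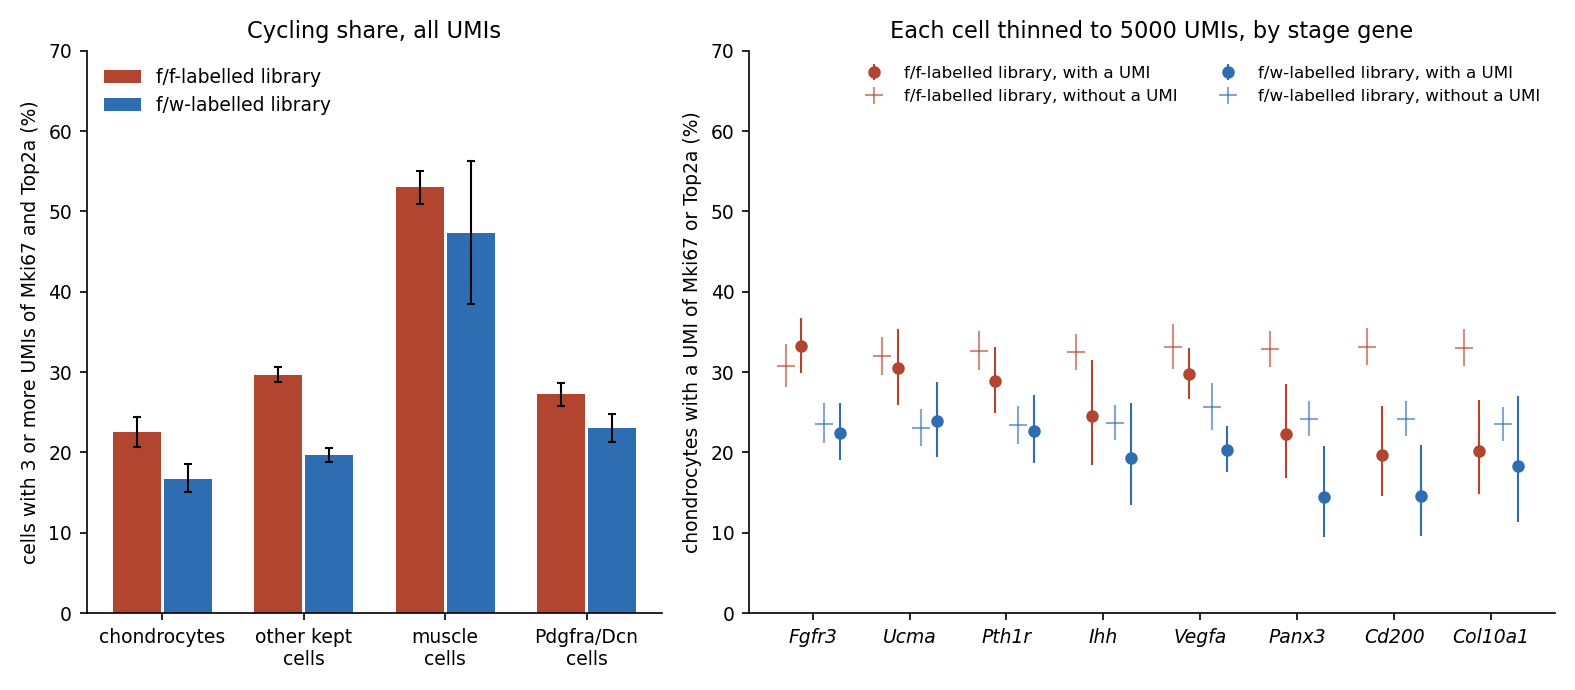
Left, share of cells with at least 3 UMIs of Mki67 and Top2a (%) in chondrocytes, all other kept cells, muscle cells and Pdgfra/Dcn cells, as bars with exact 95% counting intervals for the f/f-labelled (red) and f/w-labelled (blue) library. Right, share of chondrocytes with a UMI of Mki67 or Top2a (%) after thinning to 5000 UMIs, for cells with (circles) and without (dashes) a UMI of each stage gene, with exact 95% intervals as vertical lines. Of the 8 genes plotted, chondrocytes with a UMI of Panx3, Cd200 or Col10a1 had the lowest shares in both libraries.

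Cycling shares of chondrocytes with and without a UMI of each stage gene were compared by their intervals, with no test. Overlapping intervals do not show that shares are equal. Among f/f-labelled chondrocytes thinned to 5000 UMIs, those with a UMI of Col10a1, the hypertrophic collagen, were cycling in 20.2% (14.8 to 26.5, n = 198) and those without in 33.0% (30.8 to 35.3). In the f/w-labelled library the shares were 18.3% (11.4 to 27.1, n = 104) and 23.5% (21.5 to 25.7), with overlapping intervals. Panx3, a channel gene of prehypertrophic cells, gave 22.3% against 32.9% in the f/f-labelled and 14.5% (9.49 to 20.7) against 24.2% (22.0 to 26.4) in the f/w-labelled library. Cd200 gave 19.7% against 33.2% and 14.6% against 24.1%. For these 2 genes the intervals of cells with and without a UMI do not overlap in either library. Ihh, the hedgehog ligand of prehypertrophic cells, gave 24.6% against 32.4% and 19.3% against 23.6%, with overlapping intervals in both. Dmp1, a mineralisation gene, marked 38 and 20 chondrocytes, of which 5 and 0 were cycling. The count of 0 of 20 has an upper 95% bound of 16.8%. Other hypertrophic genes did not all follow. Spp1 gave 24.2% against 33.6% in the f/f-labelled and 22.7% against 23.4% in the f/w-labelled library, and Ibsp, bone sialoprotein, 33.0% against 31.5% and 20.1% against 23.5%. Vegfa, which draws vessels into cartilage, gave 29.8% against 33.1% and 20.3% against 25.7%, and Ptgs2 26.5% against 32.8% and 18.75% against 24.1%. Mmp13 had a UMI in 12 and 8 chondrocytes only. For 3 genes of wider expression in cartilage the intervals overlapped in both libraries. Fgfr3 gave 33.2% against 30.7% and 22.5% against 23.6%. Ucma, a matrix gene of the upper growth zone, gave 30.5% against 32.0% and 23.9% against 23.0%, and Pth1r, the PTHrP receptor, 28.9% against 32.7% and 22.7% against 23.4%. A UMI of Col10a1 was found in 10.4% and 6.16% of chondrocytes and in 3.74% and 1.67% of endothelial cells, so a single UMI does not by itself mark a hypertrophic cell. For Panx3 these shares were 11.1% and 9.83% against 1.17% and 0.65%, for Fgfr3 38.7% and 32.2% against 3.27% and 3.06%, and for Ibsp 11.5% and 8.53% against 10.3% and 5.57%. Endothelium expresses Cd200, which had a UMI in 10.9% and 9.72% of chondrocytes and in 21.5% and 21.3% of endothelial cells.

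The cycling cells were then compared with the 2989 non-cycling chondrocytes. Since the rule reads UMIs of these same cells, the comparison is a description. Of 10069 genes with at least 200 UMIs over the cells compared, 437 (4.34%) were more than 2-fold higher in cycling cells in both libraries and 22 (0.218%) more than 2-fold lower. The median log2 ratio over all these genes was 0.09 in the f/f-labelled and 0.06 in the f/w-labelled library. Of the 437, 127 are on the lists of cell cycle, cyclin, histone and chromosome genes used here. Esco2, which acetylates cohesin in S phase, led the ranking with 59.8 CPM in cycling against 0.95 CPM in non-cycling f/f-labelled chondrocytes and 74.6 against 1.495 CPM in the f/w-labelled library, log2 ratios of 5.98 (5.33 to 6.73) and 5.64 (5.10 to 6.23). Mki67 (5.45 and 5.41) and Top2a (5.07 and 5.19), which chose the cells, were among the 10 highest. The others were Depdc1a, the kinetochore gene Nuf2, the cohesin protector Cdca5, the mitotic kinase Aurkb, the spindle genes Tpx2 and Kif11, and the kinesin Kif14. Nuf2 stood at 40.1 and 32.8 CPM in cycling against 1.05 and 0.77 CPM in non-cycling cells.

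**Figure D2:**
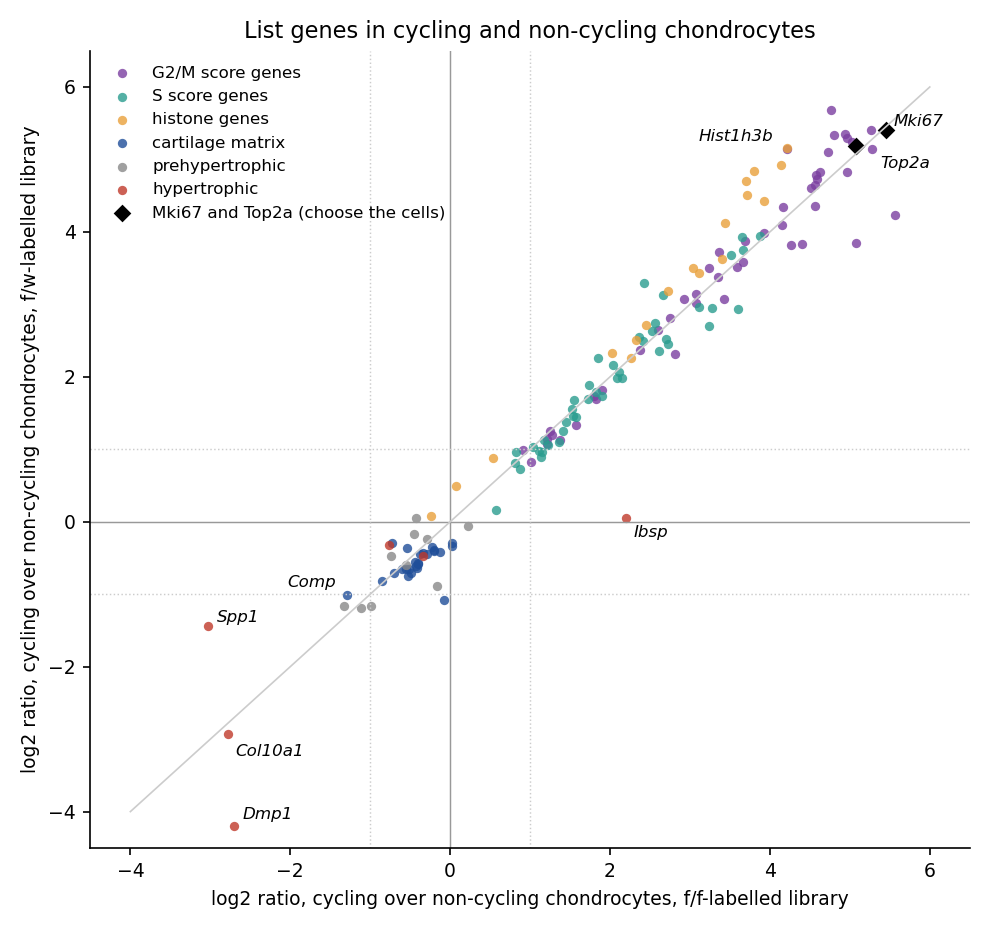
Log2 ratio of cycling over non-cycling chondrocytes for genes of 6 lists with at least 200 UMIs, in the f/f-labelled library (x axis) and the f/w-labelled library (y axis), with Mki67 and Top2a as black diamonds, dotted lines at 2-fold and a grey line of equal ratios. G2/M, S and histone genes lie at the upper right, cartilage matrix genes just under 0, and Col10a1, Dmp1 and Spp1 at the lower left, while Ibsp lies away from the line of equal ratios.

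Genes of mitosis differed most. Of 48 measured genes of the G2/M list, which holds neither Mki67 nor Top2a, 46 were past 2-fold higher and none lower, with a median log2 ratio of 3.68 and 3.77. The remaining ones, Cbx5 (0.91 and 0.99) and Ctcf (1.01 and 0.83), are chromatin genes. Tpx2, a spindle assembly factor, stood at 170.7 and 138.8 CPM in cycling and 5.23 and 3.66 CPM in non-cycling chondrocytes. Ube2c, which tags cyclins for destruction, stood at 312 and 269.7 against 24.1 and 18.4 CPM. Cdc20, its partner in the anaphase complex, had ratios of 3.08 and 3.02. Of 19 condensin and cohesin genes, 12 were past 2-fold higher and none lower. Condensin subunits were among them, such as Smc2 (3.62 and 3.59) and Ncapg (4.70 and 4.79), while the cohesin ring genes Smc3 (0.71 and 0.66) and Stag2 (0.54 and 0.58) were not.

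Genes of DNA replication were higher by less. Of 43 S phase genes, 36 were past 2-fold higher and none lower, with medians of 1.90 and 1.98. Rrm2, the ribonucleotide reductase subunit, stood at 94.8 and 90.5 CPM against 7.52 and 5.93 CPM in non-cycling cells. Clspn, of the replication checkpoint, stood at 129 and 104 CPM against 11.4 and 8.15 CPM. The helicase gene Mcm6 (0.81 and 0.81) and the clamp gene Pcna (1.15 and 0.97) were under 2-fold in at least 1 library. Of 18 histone genes, 15 were past 2-fold higher, with medians of 3.08 and 3.47. Hist1h2ap, a histone H2A gene, stood at 1249 and 1370 CPM against 82.0 and 63.6 CPM. Histone genes lie in clusters of near-identical copies, and most of their transcripts lack a poly(A) tail, so their UMIs are uncertain between copies. Among replication-independent histones, 3 of 6 were past 2-fold higher (H2afz, H2afx and H2afv), and H3f3a (0.10 and 0.14) was not.

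Among 24 cyclins, kinases and E2F factors, 17 were past 2-fold higher and none lower. The mitotic kinase Cdk1 stood at 194.6 CPM in the f/f-labelled and 156.2 CPM in the f/w-labelled cycling cells, against 22.7 and 14.0 CPM in non-cycling ones, ratios of 3.10 (2.95 to 3.25) and 3.48 (3.28 to 3.68). Cyclin A2 (Ccna2, 4.31 and 4.75) and cyclin B1 (Ccnb1, 3.77 and 4.55) were higher by more than cyclin E1 (Ccne1, 1.64 and 1.36). The D-type cyclins, which act in G1, were not past 2-fold. Ccnd1, which stood at 184 and 184 CPM in cycling cells, had ratios of 0.03 and 0.09, and Ccnd2 had -0.56 and -0.52. Among 12 CDK inhibitors and pocket proteins, Cdkn2d, Cdkn3 and Rbl1 were past 2-fold higher and none was lower. Cdkn1c stood at 4203 and 3956 CPM in cycling chondrocytes against 5294 and 4855 CPM in non-cycling ones, ratios of -0.33 (-0.35 to -0.32) and -0.30 (-0.32 to -0.28). It had a UMI in 100% and 100% of the cycling chondrocytes, and in 99.5% and 100% after thinning. Endothelial cells had thinned Cdkn1c shares of 87.6% and 73.6% and unthinned ones of 98.0% and 94.6%, so the share alone does not set it apart from free RNA. In other cycling cells it stood at 4679 and 1468 CPM.

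Promoters of 7 genes of division are shown because many genes of this group were higher together. They were chosen after their motifs were seen, to show windows with and without a match to the CHR letters searched for, and are not the 7 highest genes. Each window runs from 100 bases before to 20 bases after the gene start annotated by RefSeq (GRCm38.p6) and is printed 5′ to 3′ on the strand of the gene. Capitals mark the CHR element (TTTGAA or TTCGAA), the CCAAT box and E2F sites (TTCCCGC or TTGGCGC) on either strand, so that ATTGG is a CCAAT box and TTCAAA a CHR element read on the opposite strand. The windows are those of Top2a (chr11:99024170-99024289, minus strand), Cdk1 (chr10:69352893-69353012, minus), Ccnb2 (chr9:70421535-70421654, minus), Cdc20 (chr4:118437324-118437443, minus), Mki67 (chr7:135716360-135716479, minus), Ccnb1 (chr13:100786467-100786586, minus) and Birc5 (chr11:117849137-117849256, plus), with Acan (chr7:79053126-79053245, plus) as a cartilage gene beside them.
Top2a: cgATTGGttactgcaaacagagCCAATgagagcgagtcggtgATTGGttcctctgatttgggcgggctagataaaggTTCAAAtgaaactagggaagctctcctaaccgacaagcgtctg
Cdk1: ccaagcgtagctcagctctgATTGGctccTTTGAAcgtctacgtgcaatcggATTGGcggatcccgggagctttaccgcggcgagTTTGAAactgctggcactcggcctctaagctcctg
Ccnb2: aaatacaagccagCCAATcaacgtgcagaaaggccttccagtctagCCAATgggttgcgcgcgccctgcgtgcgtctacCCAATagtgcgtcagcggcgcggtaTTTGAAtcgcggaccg
Cdc20: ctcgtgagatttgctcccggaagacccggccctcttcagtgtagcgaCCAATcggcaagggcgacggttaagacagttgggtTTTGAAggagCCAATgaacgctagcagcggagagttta
Mki67: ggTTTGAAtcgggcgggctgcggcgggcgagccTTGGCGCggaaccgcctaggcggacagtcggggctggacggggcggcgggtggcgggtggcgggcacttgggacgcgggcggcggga
Ccnb1: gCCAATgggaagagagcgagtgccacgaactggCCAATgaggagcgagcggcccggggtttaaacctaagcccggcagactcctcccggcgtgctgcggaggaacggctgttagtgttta
Birc5: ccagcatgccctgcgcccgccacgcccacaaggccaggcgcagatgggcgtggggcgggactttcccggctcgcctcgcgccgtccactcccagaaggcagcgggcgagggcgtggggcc
Acan: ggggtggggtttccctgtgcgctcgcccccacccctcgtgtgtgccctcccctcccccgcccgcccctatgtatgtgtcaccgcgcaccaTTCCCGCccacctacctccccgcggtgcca
Top2a, Cdk1, Ccnb2 and Cdc20 hold both a CHR element and CCAAT boxes, and Mki67 a CHR element and an E2F site. Ccnb1 holds CCAAT boxes and neither TTTGAA nor TTCGAA, Birc5 none of these letters, and Acan only an E2F letter match. Plk1 and Cenpe, also higher in cycling cells (4.62 and 4.83, 4.73 and 5.10), hold a CCAAT box and neither TTTGAA nor TTCGAA. Other forms of the CHR element were not searched for, so a window without a match may still hold one. Of the 49 G2/M genes, 44 had a RefSeq promoter, and 18 of these (40.9%) held a CHR element, 31 (70.5%) a CCAAT box and 16 (36.4%) both. In all 27025 promoters the shares were 8.38%, 23.6% and 1.76%. Of the S phase genes, 31 of 43 had a promoter, of which 3 (9.68%) held a CHR element, 20 (64.5%) a CCAAT box and 10 (32.3%) an E2F site, against 3.63% of all promoters. Of the cartilage matrix genes, 21 of 27 had a promoter, and 0 held a CHR element, 5 (23.8%) a CCAAT box and 1, Acan, an E2F site. Over the 437 genes higher in cycling cells, 325 had a promoter, of which 22.2% held a CHR element and 47.1% a CCAAT box, against 5.47% and 27.6% of the promoters of all genes measured. Each motif was counted on its own, whether or not it overlapped another, and a match is a description of the letters and not of a bound factor.

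Cartilage matrix genes were present at a somewhat lower share of the RNA. Of 25 cartilage matrix genes, none was past 2-fold higher in cycling cells and only Comp lower, with median log2 ratios of -0.42 and -0.57. Comp, a matrix protein of maturing cartilage, stood at 247 and 257 CPM against 604 and 516 CPM in non-cycling chondrocytes. Acan, Col9a1 and Matn1 chose the cells by an absolute number of UMIs, which deeper cells pass at a lower share of their RNA, and cycling cells were deeper. Acan stood at 1384 and 1024 CPM against 1698 and 1394 CPM. Hapln1, which links aggrecan to hyaluronan and was not used by the rule, stood at 1058 and 991 against 1728 and 1612 CPM. Matn3, another matrix gene, had ratios of 0.02 and -0.29. Of 25 transcription factors of the lineage, none was past 2-fold either way. The ratios were -0.21 and -0.45 for Sox9, -0.02 and -0.29 for Sox5 and -0.09 and -0.20 for Sox6. Prrx1, of limb mesenchyme, had 0.46 and 0.52.

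Genes of later stages were in part lower. Of 6 hypertrophic genes, Col10a1, Spp1 and Dmp1 were past 2-fold lower and none was higher in both libraries. Col10a1 stood at 74.9 and 35.3 CPM in cycling against 515.4 and 268.6 CPM in non-cycling chondrocytes, ratios of -2.78 (-2.90 to -2.67) and -2.93 (-3.12 to -2.74). Its UMIs were concentrated, with 85.1% and 84.1% of those in cycling cells in 3 cells of each library. Spp1, osteopontin, had ratios of -3.03 and -1.43. Ibsp stood at 352 and 200 CPM, of which 84.1% and 94.3% lay in 3 cells of each library, and had ratios of 2.20 and 0.05. Vegfa had -0.34 and -0.47. Of 10 prehypertrophic genes, Panx3 (-1.32 and -1.17) and Cd200 (-1.12 and -1.18) were past 2-fold lower and none higher. Ihh stood at 20.3 and 20.1 CPM against 40.3 and 45.2 CPM, ratios of -0.99 (-1.22 to -0.76) and -1.17 (-1.44 to -0.90). Of 12 genes of resting and joint cartilage, none was past 2-fold either way. The other genes past 2-fold lower were Adamts6, B230216N24Rik, Cstdc5, Ehd3, Gm20186, Krtap17-1, Loxl4, Mustn1, Omd, Phex, Pltp and Slc16a4 and the haemoglobin genes Hba-a1, Hba-a2, Hbb-bs and Hbb-bt, which red cells make. The summed erythroid markers were 326 and 103 CPM in cycling against 1672 and 1531 CPM in non-cycling chondrocytes, and their part in the result was not tested.

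Genes of growth signals were then compared between cycling and non-cycling chondrocytes. Since 4.34% of all genes were past 2-fold higher and 0.218% lower, counts of 0 or 1 in lists of this size are near the background and say nothing particular about these pathways. None of 13 genes of the Ihh and PTHrP pathway was past 2-fold. The hedgehog targets Ptch1 (104 and 104 CPM, ratios of 0.15 and 0.14), Gli1 (0.33 and 0.48) and Hhip (0.56 and 0.42) and the coreceptors Cdon (0.75 and 0.39) and Boc (0.59 and 0.67) were above 0, while Pth1r was at -0.74 and -0.47. None of 14 FGF genes was past 2-fold. Fgfr3, the growth-restraining receptor, stood at 134 and 89.9 CPM, with ratios of 0.22 and -0.06. None of 27 BMP and TGF-beta genes and none of 21 WNT genes was past 2-fold, with Bmp6 (-1.34 and -0.92) and Frzb, a WNT inhibitor of the joint (-0.96 and -0.61), among the lowest. Of 17 genes of the IGF axis and imprinted growth genes only Igfbp3 was past 2-fold higher (1.08 and 1.07). Igf2, the embryonic growth factor, stood at 1104 and 973 CPM with ratios of -0.15 and -0.24. SR splicing factors, the family of Srsf2, had medians of 0.35 and 0.23 over 12 genes, with none past 2-fold, and Srsf2 itself had 0.65 (0.58 to 0.72) and 0.60 (0.51 to 0.70). None of 17 stress genes and none of 22 glycolysis and hypoxia genes was past 2-fold. Of 25 p53 target genes, Ckap2, also a mitotic gene, was past 2-fold higher and Pltp lower. Of the 5 muscle, neuronal, epithelial, immune and Schwann lists, only 1 muscle gene of 6 measured, Myod1, was past 2-fold higher (15.7 and 2.72 CPM against 4.58 and 0.62 CPM), and none was lower. Of 2 pericyte genes measured, the smooth muscle actin gene Acta2 was past 2-fold higher (1.03 and 1.38). None of 18 genes of collagen folding and export, of 21 Hox genes and of 11 mesenchyme genes was past 2-fold.

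What sets these cells apart from other dividing cells was asked next, against the 4632 cycling cells outside the chondrocyte rule (3025 and 1607), which had median depths of 15798 and 18020 UMIs. Of 12218 genes, 448 (3.67%) were past 2-fold higher in cycling chondrocytes in both libraries and 856 (7.01%) past 2-fold lower. The median over all genes was -0.13 and -0.10. All 24 measured cartilage matrix genes were higher, with medians of 5.03 and 3.20, including the rule genes, which had to be. Among the 10 highest were Cytl1, a secreted cartilage protein (527 and 362 CPM against 11.7 and 26.7), Ucma (69.4 and 80.5 against 1.45 and 6.51), the proteoglycan gene Epyc (501 and 386 against 10.9 and 35.7), Cnmd, chondromodulin (853 and 903 against 25.5 and 87.2), and Snorc (996 and 945 against 29.7 and 92.5). The others were 9330188P03Rik, Lbhd2, Susd5, Klk10 and Col9a1. Of 25 lineage factors, Sox9, Sox5, Sox6, Foxc1, Foxc2 and Foxa3 were past 2-fold higher and Hand2, a limb patterning factor, lower. Of 18 genes for folding and export of procollagen, 7 were past 2-fold higher and none lower, such as the lysyl hydroxylase Plod2 (461 and 356 against 82.1 and 75.8 CPM) and the collagen chaperone Serpinh1 (1339 and 1389 against 538 and 589). Of 24 glycolysis and hypoxia genes, 5 were higher and 1, Adm, lower. The lactate exporter Slc16a3 stood at 50.4 and 40.6 against 7.99 and 11.4 CPM, and the prolyl hydroxylase P4ha1 at 344 and 318 against 86.3 and 99.8 CPM. Fgfr3 stood at 134 and 89.9 against 4.92 and 10.4 CPM.

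The cell cycle genes themselves did not set cycling chondrocytes apart at this size. Both populations were chosen by the same limit on UMIs of Mki67 and Top2a, which favours similar levels of cell cycle genes. The comparison therefore cannot show whether division runs alike in chondrocytes and other cells. None of 43 S phase genes, of 49 G2/M genes, of 18 histone genes or of 19 condensin and cohesin genes was past 2-fold in both libraries. Their medians were -0.28 and -0.05 for S phase, -0.15 and 0.13 for G2/M and -0.68 and -0.07 for histones. Of 26 cyclins and related genes, none was past 2-fold higher and E2f2, a replication activator, and Mycn (-1.32 and -1.06) were lower. Ccne1 stood at 83.0 and 51.3 CPM against 136 and 34.2 CPM in other cycling cells. Of the 437 genes higher in cycling than in non-cycling chondrocytes, 22 were past 2-fold against the other cycling cells, the Myb family factor Mybl1 and the repair gene Xrcc2 higher and 20 lower, among them Myod1, Igfbp3, Acta2 and Cdh15. Lower genes were led by genes at 0 UMIs in cycling chondrocytes of both libraries, among them Gpihbp1 of capillary endothelium, the erythroid gene Alas2 and the rule genes Pecam1 and Cdh5. Of 11 muscle genes, 10 were lower, and of 7 endothelial genes all 7 were lower, which the rule favours. Other cycling cells are a mixture that held many more muscle cells in the f/f-labelled library, and the part of this in their levels was not tested. They also include the 34 and 89 cycling cells past the cartilage limit that had a UMI of Pecam1 or Cdh5, which carry cartilage UMIs into the comparison, more so in the f/w-labelled library.

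Within the cycling chondrocytes, cells were ordered by the log2 ratio of their G2/M list UMIs to their S list UMIs, each plus 1, and split into 3 equal parts in each library (147 each, and 99, 99 and 98 cells). The order is built from those lists, so only genes on neither list are described, with no test. The parts are ranges of a score and not types, and 96 and 75 cells lay within 0.25 of a limit between parts. The S-rich part had median scores of -0.26 and 0.04 and the G2/M-rich part 2.85 and 2.88. Median depth was 19399, 20042 and 17659 UMIs in the parts of the f/f-labelled library, and 18836, 20010 and 16565.5 in the f/w-labelled one.

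Several cyclins followed the order they have in the cycle and others did not. Ccne1, of the entry into S phase, was at 141, 94.1 and 9.79 CPM from the S-rich to the G2/M-rich part in the f/f-labelled library and at 95.7, 40.0 and 11.3 CPM in the f/w-labelled one. Ccne2 was at 91.4, 44.5 and 8.04 CPM and at 103, 33.0 and 5.39 CPM. E2f1, the replication activator, was at 43.5, 22.4 and 7.34 CPM and at 36.1, 15.1 and 5.93 CPM. In the opposite direction, Cdk1 was at 131, 190 and 267 CPM and at 97.0, 139 and 252 CPM. Cyclin B2 (Ccnb2) was at 9.71, 44.5 and 171 CPM and at 14.8, 54.2 and 141 CPM, a log2 ratio of the last over the first part of 4.13 (3.59 to 4.73) and 3.25 (2.73 to 3.81). Cdkn3, a phosphatase that acts on Cdk1, was at 5.69, 23.0 and 83.2 CPM and at 7.83, 25.3 and 102 CPM. Ccnd1 and Ccnf did not run steadily in either direction. Ccnd1 was at 193, 163 and 201 CPM and at 176, 175 and 205 CPM. Ccnf was at 12.7, 18.2 and 9.09 CPM and at 11.7, 8.56 and 13.5 CPM. Most histone genes were highest in the middle part, 16 of 18 in the f/f-labelled and 13 of 18 in the f/w-labelled library. For the cartilage matrix list these counts were 1 of 25 and 1 of 25, and the share over all genes is not given here. Hist1h2ap was at 1222, 1792 and 642 CPM and at 1349, 1736 and 912 CPM, and the histone list summed to 3237, 4752 and 2154 CPM and to 3878, 5018 and 3247 CPM. Hist1h2bc was highest in the last part, at 157 and 271 CPM. Esco2 was at 65.0, 89.0 and 20.3 CPM and at 91.8, 88.5 and 35.0 CPM.

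**Figure D3:**
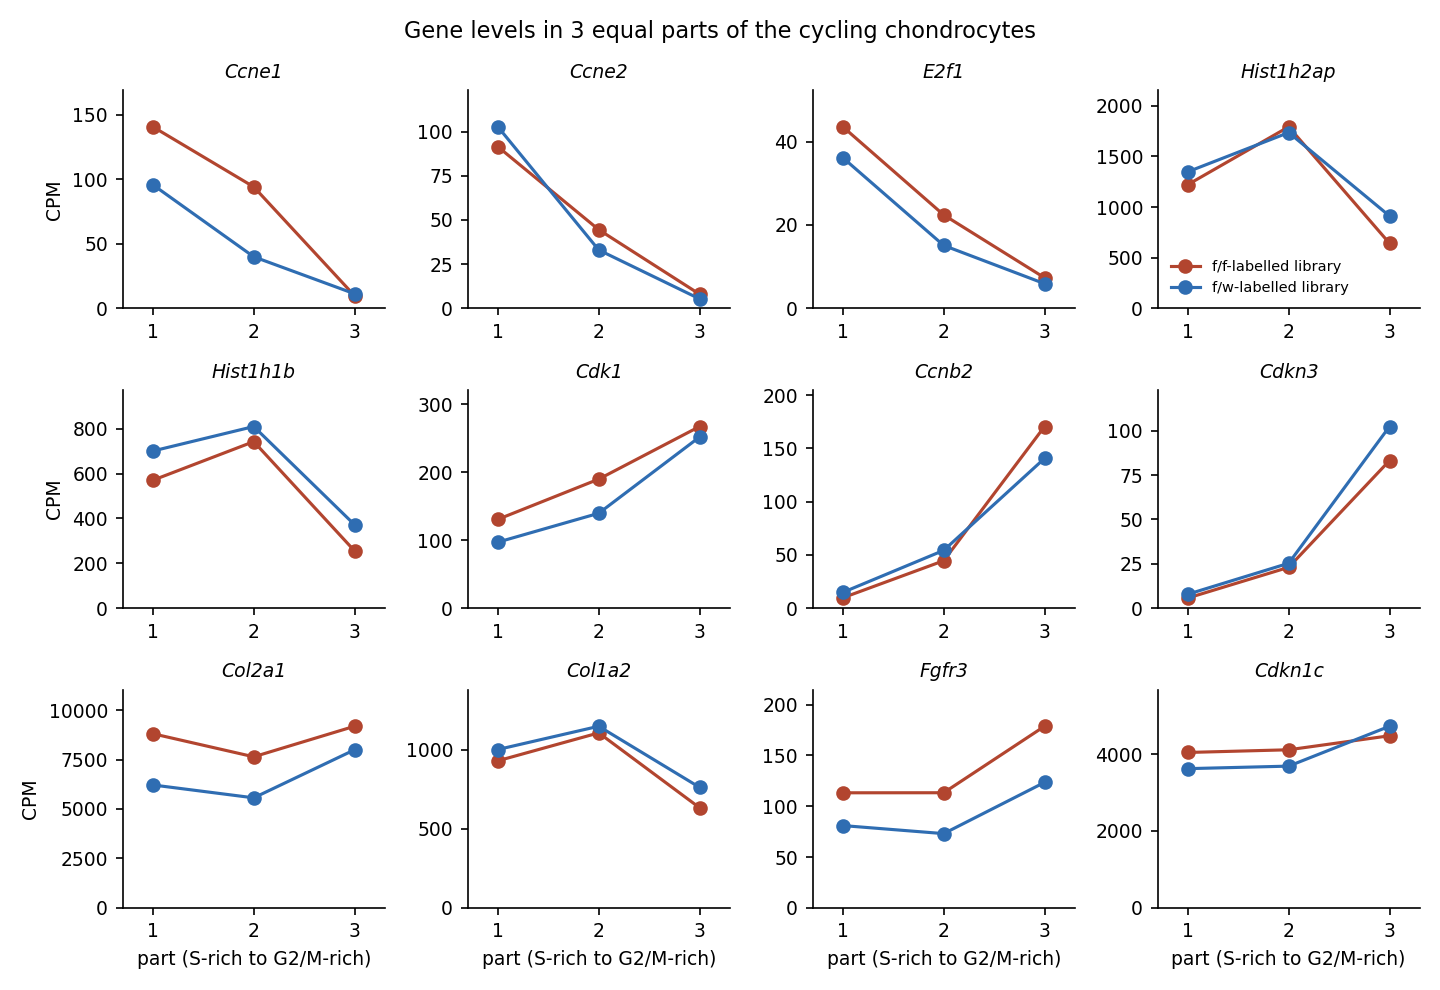
Level (CPM, y axes from 0) of 12 genes in 3 equal parts of the cycling chondrocytes, ordered from S-rich to G2/M-rich (x axes), for the f/f-labelled (red) and f/w-labelled (blue) library. Ccne1, Ccne2 and E2f1 are highest in the first part, the histone genes Hist1h2ap and Hist1h1b in the middle part, and Cdk1, Ccnb2 and Cdkn3 in the last part. Cdkn1c is highest in the last part and Col2a1 lowest in the middle part in both libraries.

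Cartilage genes were described along the same order. Col2a1 was at 8808, 7641 and 9185 CPM and at 6215, 5565 and 7996 CPM, lowest in the middle part in both libraries, and the cartilage matrix list summed to 30134, 25840 and 31210 CPM and to 23053, 20838 and 28784 CPM. Col1a2, a fibroblast and perichondrial collagen, ran the other way, at 930, 1106 and 633 CPM and at 1001, 1148 and 762 CPM. Fgfr3 was at 113, 113 and 179 CPM and at 80.9, 73.0 and 123 CPM, log2 ratios of the last over the first part of 0.66 (0.46 to 0.86) and 0.61 (0.32 to 0.90). Cdkn1c was at 4043, 4113 and 4477 CPM and at 3622, 3687 and 4725 CPM, and Ccnd2 at 472, 430 and 362 CPM and at 438, 383 and 287 CPM. Sox9 was at 658, 627 and 654 CPM and at 444, 509 and 509 CPM. Ihh was at 16.7, 19.7 and 24.8 CPM and at 26.1, 18.4 and 15.1 CPM, in opposite order in the libraries. Ucma was at 80.4, 74.4 and 52.1 CPM and at 55.7, 55.5 and 144 CPM, log2 ratios of the last over the first part of -0.63 (-0.93 to -0.32) and 1.37 (1.07 to 1.69). Comp (-0.37 and 0.33) and Matn1 (-0.35 and 0.30) also had opposite signs. Ibsp was at 44.9, 909 and 19.6 CPM and at 24.8, 70.6 and 588 CPM, with most of its UMIs in 3 cells of each library as given above. Other cell types' markers moved along the parts too. Mesenchyme genes summed to 3190, 3754 and 2313 CPM and to 3374, 3823 and 2908 CPM. In the f/w-labelled library, immune genes summed to 552, 114 and 22.6 CPM, osteoblast genes to 74.8, 121 and 643 CPM, epithelial genes to 185, 395 and 43.6 CPM and neuronal genes to 33.1, 64.4 and 259 CPM. In the f/f-labelled library, osteoblast genes summed to 87.1, 992 and 50.7 CPM and erythroid genes to 99.1, 97.4 and 831 CPM. Their part in these values was not tested.

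The comparison of the libraries asked how the cycling chondrocytes differed between the genotypes. Of 7034 genes with at least 200 UMIs over both, 40 (0.569%) were past 2-fold higher in the f/w-labelled library and 15 (0.213%) past 2-fold lower. The median log2 ratio over all genes was -0.04. These directions rest on the titles, which the share of muscle cells goes against. The highest were genes of mast cells and epidermis. Cpa3 stood at 0.33 CPM (3 UMIs) in the f/f-labelled and 145 CPM (956 UMIs) in the f/w-labelled library, and 62.6% of the latter lay in 3 cells. The mast cell genes Cma1 (6 and 1732 UMIs), Tpsb2, Hdc, Srgn and Fcer1g and the skin genes Krtdap, Krt14 (6.42 and 99.0 CPM), Dmkn and Sprr1a made up the rest of the 10 highest. The lowest were Car3 and the muscle genes Actc1 (71.9 and 13.3 CPM), Ttn (22.8 and 4.69 CPM) and Tnnt1 (43.1 and 11.2 CPM), the genes Xaf1 and 2810403D21Rik, and the haemoglobin genes. Hbb-bs stood at 191 and 53.4 CPM, with 78.9% of the f/f-labelled UMIs in 3 cells.

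Many of these genes were concentrated in few cells. For 18 of the 40 higher and 9 of the 15 lower genes, over 50% of the UMIs of the higher library lay in 3 cells. Cells with at least 3 UMIs of muscle, immune, epithelial, neuronal, Schwann or endothelial markers numbered 133 of 441 (30.2%) and 93 of 296 (31.4%). Without them, in an alternative added after seeing the data, 16 genes of 5286 were past 2-fold higher and 1 lower. Of the 40 higher genes, 12 then still had 200 UMIs and 8 were past 2-fold, and of the 15 lower genes these numbers were 2 and 0. Genes under the minimum were not counted. Of the 28 higher and 13 lower genes under it, 14 and 8 kept a ratio past 2-fold, such as Xaf1 (-1.96 with all cells and -2.03 without, on 136 and 23 UMIs), Sim2 (-1.35 and -1.47, on 153 and 38 UMIs) and Fst (2.81 and 1.82, on 43 and 105 UMIs). Those 14 and 8 include Cpa3, Krt5, Actc1 and Tnnt1, which are among the markers that chose the cells left out, so their ratios without those cells say nothing further. The 8 were Spp1, Hmox1, Cwc22, Fxyd7, Igfbp2, Mt1, Mt2 and Kctd12. Spp1 stood at 88.9 CPM in the f/f-labelled and 341 CPM in the f/w-labelled library, a ratio of 1.94 (1.82 to 2.06) with all cells and 2.05 without those cells. Cwc22, a spliceosome factor, stood at 26.6 and 72.7 CPM, had a UMI in 169 and 188 cells, and had ratios of 1.45 and 1.34. Igfbp2, a binding protein of insulin-like growth factors, stood at 35.6 and 82.0 CPM (1.21 and 1.29), the metallothionein Mt1 at 203 and 431 CPM (1.09 and 1.23), and Hmox1, haem oxygenase, at 18.7 and 66.9 CPM (1.84 and 1.17). In non-cycling chondrocytes the ratios were 0.34 for Spp1, 1.08 for Hmox1, 1.74 for Cwc22 and 1.10 for Fxyd7. They were 0.87 for Igfbp2, 1.11 for Mt1, 0.94 for Mt2 and 0.50 for Kctd12 there. Col10a1, at 74.9 and 35.3 CPM, was past 2-fold lower with all cells (-1.09, -1.31 to -0.87), on 3 cells that held 85.1% of its f/f-labelled UMIs, and had -0.16 (-0.55 to 0.22) without the cells with other markers. For Col10a1 the non-cycling chondrocytes had -0.94.

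**Figure D4:**
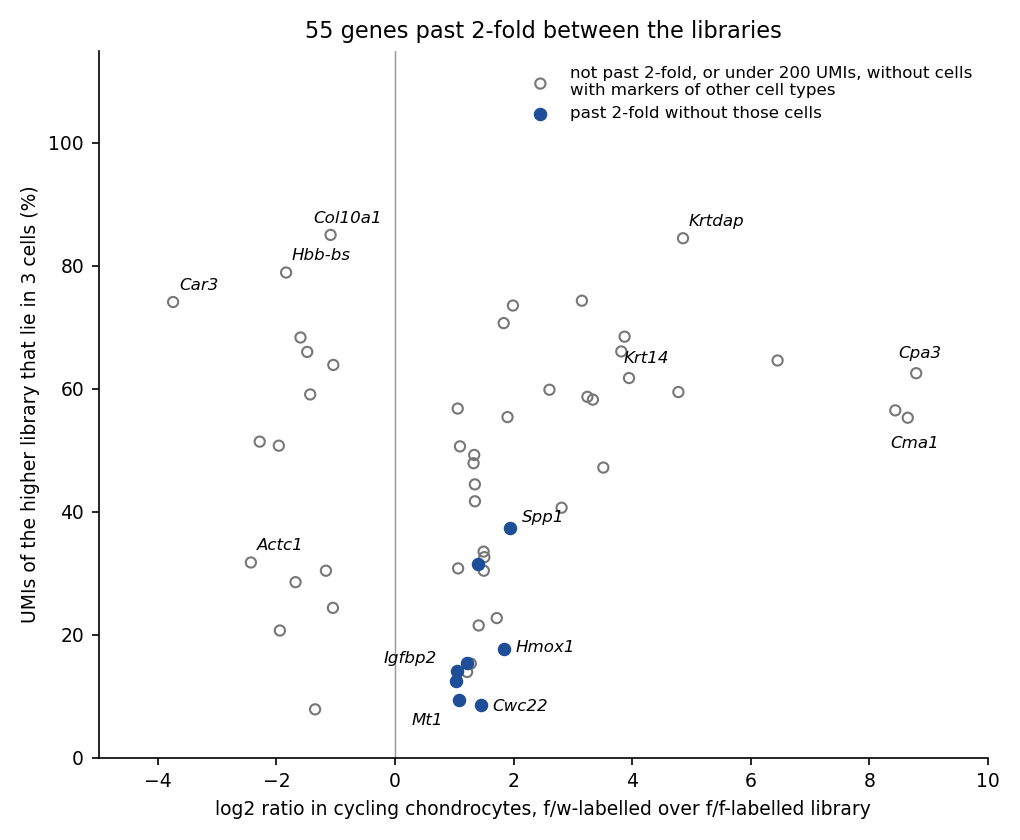
For the 55 genes past 2-fold between the libraries, log2 ratio of f/w-labelled over f/f-labelled cycling chondrocytes (x axis) against the share of the higher library's UMIs that lie in 3 cells (%, y axis). Filled points are the 8 genes that kept 200 UMIs and stayed past 2-fold without cells carrying markers of other cell types. Open points are genes under 200 UMIs or within 2-fold without those cells. Cpa3, Krt14 and Hbb-bs lie at over 50% in 3 cells, and the highest filled point is Spp1 at 37.4%.

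With all cells, the S phase, G2/M, cyclin, histone and cartilage matrix lists held no gene past 2-fold between the libraries. Since 0.569% and 0.213% of all genes were past it, a count of 0 is near the background for lists of this size. Without cells with a Scrublet score of at least 0.25, Cdc25b and Cdc25c were past 2-fold lower. Without the cells with other markers, the histone gene Hist2h2bb was past 2-fold higher. Of 5 hypertrophic genes measured, Spp1 was higher and Col10a1 lower. The median log2 ratios, f/w-labelled over f/f-labelled, were -0.27 over 41 S phase genes, -0.19 over 48 G2/M genes and 0.32 over 17 histone genes, and in non-cycling chondrocytes -0.22, -0.20 and -0.26. Cartilage matrix genes had a median of -0.29 over 24 genes, with Col2a1 at -0.39 (-0.41 to -0.38), and -0.16 in non-cycling chondrocytes. Acan, which helped choose the cells, had -0.43 (-0.48 to -0.39). Sox9 had -0.41 (-0.47 to -0.35). With all cells, the 17 immediate-early and stress genes had a median of 0.52 and none past 2-fold, with Jun at 939 and 1559 CPM and Fos at 938 and 1366 CPM, and 0.34 in non-cycling chondrocytes. The heat shock genes Hspa1a and Hspb1 were past 2-fold higher without the cells with other markers. They were also past it without cells with a Scrublet score of at least 0.25. Of 16 p53 target genes, Perp and Ddit4l were past 2-fold higher and none lower. Perp had 44.5% of its f/w-labelled UMIs in 3 cells and went from 1.35 to 0.41 without the cells with other markers, and Ddit4l, at 1.35 and 1.02, fell under 200 UMIs. Cdkn1a, p21, stood at 304 and 453 CPM (0.57). Hox genes had a median of -0.43 over the 5 that reached 200 UMIs. Y-linked genes without Xist had a UMI in 91.6% and 92.2% of the cycling chondrocytes, and Xist without them in 1 and 0 cells, so the cells of both libraries were alike in this measure.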

How the data were processed

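Gene counts were deposited by the authors as a matrix of UMI counts per gene and barcode over both libraries, with 571426356 and 575393483 reads and a sequencing saturation of 39.5% and 45.9% (f/f-labelled, f/w-labelled). The matrix header names Cell Ranger 5.0.0, and the submitters' processing notes name Cell Ranger 3.1.0, STAR, Seurat 3.1.1 and mm10. Reads in introns were not counted and libraries were equalised by down-sampling reads when aggregated, which lowers counts of the deeper library.

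UMIs were summed over the cells of each population and library and divided by the summed UMIs of those cells (CPM). Genes needed 200 UMIs over the cells compared. With 1 library per genotype no test was run. Past 2-fold is a fixed size rule, and ratios have exact 95% binomial intervals. No floor was used in the ranking. Genes at 0 UMIs in the cycling chondrocytes of both libraries were therefore tied as lowest, in the order of the deposited gene list. The 10 highest and lowest genes of each comparison and the genes of fixed lists were named, and other genes were chosen after their values were seen. The members and lists were chosen with earlier results of these data known. No doublet was removed. Promoters came from RefSeq GRCm38.p6. Python 3.11.15, NumPy 2.4.6, SciPy 1.17.1, pandas 2.3.3, matplotlib 3.10.9 and Scanpy 1.11.5 (Scrublet) were used, and the ratio code was tested on simulated data.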

Additional observations from a re-analysis of the deposited data

Results flagged for a closer look

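For 10 named genes the log2 ratio of cycling over non-cycling chondrocytes pointed in opposite directions in the libraries, with neither counting interval reaching 0. The difference between the libraries was not tested, since each genotype has 1 library. The p53 target genes were Cdkn1a, with -0.15 in the f/f-labelled and 0.12 in the f/w-labelled library, Plk2 with -0.33 and 0.19, and Perp with -0.27 and 0.54. The immediate-early gene Atf3 had -0.36 and 0.17, and Ier2 had -0.066 and 0.12. The neuronal genes Dcx, with 0.74 and -0.81, and Stmn2, with 0.80 and -1.26, were the opposite way round. Sprr1a, a skin gene, had -1.93 and 0.82. Xaf1 had 1.24 and -0.61, and 2810403D21Rik had 0.88 and -0.54. Some of these genes lay in few cells, with 66.1% of the f/w-labelled UMIs of Sprr1a, 44.5% of those of Perp and 50.8% of the f/f-labelled UMIs of Xaf1 in 3 cycling cells, and the part of cells with markers of other types was not tested.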

How the results depend on the processing

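The log2 ratio of the cycling shares stayed negative under all 10 alternatives run (-0.55 to -0.33), and so did the Srsf2 ratio (-0.47 to -0.43). None of them changed the condition of 0 UMIs of Pecam1 and Cdh5. They therefore cannot show how far these ratios depend on it. The cycling share itself follows its limit. With 2 UMIs of Mki67 and Top2a it was 28.1% (f/f-labelled) and 20.6% (f/w-labelled), with 5 UMIs 19.3% and 13.8%, with cells thinned to 5000 UMIs and the limit lowered to 1 UMI in the same step 31.7% and 23.2%, and without cells carrying markers of other cell types 19.7% and 14.6%. The counts of genes past 2-fold between the libraries, 40 higher and 15 lower of 7034 measured, were 61 and 30 of 7657 with chondrocytes called from 5 UMIs. They were 98 and 44 of 8903 with a gene minimum of 100 UMIs and 3 and 1 of 2389 with 1000. Without the cells with other markers they were 16 and 1 of 5286. Removing barcodes above the mean plus 2 SD of log10 UMIs left 22 higher of 6276. Of the genes past 2-fold in cycling over non-cycling chondrocytes, 165 were higher and 14 lower of 5668 with a gene minimum of 1000. There were 39 lower of 11661 with 100, and 34 lower of 9795 without the deepest barcodes. The cause of these changes was not tested, beyond the number of genes and cells each setting keeps. Removing cells with other markers and removing cells with a Scrublet score of at least 0.25 were chosen after seeing the data. The second gave 54 higher and 15 lower genes of 6530 between the libraries. The planned removal at the automatic Scrublet limit was not run, because that limit marked no cell in the f/w-labelled library. No paired analysis was possible because each genotype has 1 library. No replicate measures the spread between embryos.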

Other observations

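Principal components of the 737 cycling chondrocytes over 2000 variable genes separated the cells along 2 gradients. The first, with 4.24% of the variance, ran from Col3a1, Col1a1, Marcks, Tmsb4x and Lgals1, genes of fibroblasts and the perichondrium or of motile cells, to the cartilage genes Col9a3, Col2a1, Mia, Snorc and Acan. The second, with 2.28%, ran from the division genes Top2a, Hmgb2, Smc2, Nusap1 and Stmn1 to Timp1, Dusp5, Hilpda, Ppa1 and Camk2d. Across cells, which are not replicates, Pearson's r of the first component was 0.15 with the log10 of the UMIs, -0.12 with the order from S to G2/M and 0.16 with the mitochondrial share. For the second it was -0.37, 0.28 and -0.16.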
